A study of Mus musculus with 20 samples.

Results

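Loss of the integrin subunit Itgb7 was followed here as its average effect over the 2 cell populations sorted from the small-intestinal crypts of each mouse. All 20 libraries of the series entered, from 10 mice: 5 Itgb7+/+ Lgr5-GFP mice (wild type, WT; numbers 1, 3, 6, 7 and 8) and 5 Itgb7-/- Lgr5-GFP mice (knockout, KO; numbers 2, 3, 4, 5 and 6), all C57BL/6J and 8 weeks old, with no treatment named. Both genotypes carried the Lgr5-GFP reporter, which labels crypt stem cells. Every mouse gave a GFP-high library, labelled as stem cells, and a GFP-low library, labelled as transit-amplifying cells. Sorted cells were viable, EpCAM-positive and negative for CD45, CD31 and TER119. For each mouse the log2 CPM (counts of a gene relative to the library total, scaled to 1000000) of its 2 libraries were averaged, and the 5 KO mice were compared with the 5 WT mice. Of the genes with a unique name in both deposited tables, 11296 were held by both and all were tested. KO and WT mice that carry the same number are different animals and were not paired.

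Integrin beta 7 pairs with alpha 4 or alpha E on lymphocytes. Alpha 4 beta 7 lets lymphocytes home from the blood to the gut, and alpha E beta 7 binds E-cadherin and so holds intraepithelial lymphocytes against the epithelium. The crypt cells sorted here are the epithelial neighbours of those lymphocytes: Lgr5-positive stem cells at the crypt base and the dividing progeny above them, both kept in cycle by Wnt signals. The labels give the KO mice as Itgb7-/- and name no cell type to which the loss was limited. The sort selected against CD45-positive cells, though some lymphocyte transcripts were measured (values further on).

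Library totals ran from 20900404 to 27838392 counts. Itgb7 itself was not among the genes tested, which leaves the genotype labels unchecked by it. The reporter's own gene followed the sort: Lgr5 was between 85.5 and 132 CPM in WT GFP-high libraries and between 5.11 and 19.4 CPM in WT GFP-low libraries, and between 91.1 and 117 CPM against 4.21 and 9.62 CPM in the KO libraries. Transcripts of 3 Y-linked genes were present in both libraries of 3 WT mice and of 3 KO mice and low in both libraries of the others, so no mouse had a library of the other sex and the sexes were balanced. Within a genotype each GFP-high library resembled the GFP-low library of its own mouse more than that of any other. No source names a batch for these libraries. In bulk samples fewer cells of a type and less RNA per cell cannot be told apart.

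A single gene passed the test. Arhgef10, which encodes a guanine nucleotide exchange factor, fell in KO mice, and no gene rose at an adjusted p under 0.05 (limma, Benjamini-Hochberg over 11296 genes; 0.00885% of genes called). In WT mice 1, 3, 6, 7 and 8 its level, the geometric mean of the 2 libraries, was 4.25, 3.77, 3.85, 3.23 and 3.24 CPM. In KO mice 2, 3, 4, 5 and 6 it was 0.890, 1.11, 0.897, 1.29 and 0.929 CPM. The groups did not overlap, the lowest WT mouse lying well above the highest KO mouse. The level was 3.60-fold lower in KO mice, a log2 fold change of -1.85 ± 0.18 (SE; 95% interval -2.23 to -1.47) with an adjusted p of 0.00122. Arhgef10 lies on chromosome 8 (chr8:14906412-15001085, GRCm38). The transcript was rare, with 56 to 121 counts in a WT library and 15 to 48 in a KO library. KO libraries were below all WT libraries within each population. GFP-high cells held 2.21 to 5.21 CPM in WT and 0.744 to 1.88 CPM in KO mice, and GFP-low cells 3.47 to 5.14 CPM in WT and 0.887 to 1.09 CPM in KO mice. Of the 4 tested genes within 1 Mb of it, none had an unadjusted p under 0.05, and their log2 fold changes ran from -0.20 to 0.06.

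The rest of the transcriptome differed little. The median log2 fold change of all genes was -0.001, with quartiles of -0.10 and 0.09, and 22 genes had a change of more than 1 in either direction. Before adjustment, 471 genes (4.17%) were higher and 411 genes (3.64%) lower in KO mice at a p under 0.05. All 5 KO mice stood above all 5 WT mice for 88 genes (0.779%) and below them for 56 genes (0.496%). With 5 mice against 5, an exact permutation test cannot give a two-sided p below 0.00794, and 144 genes reached that value. Each population alone gave a like picture: no gene passed in GFP-high libraries (limma, 0% called; 1129 genes had an unadjusted p under 0.05), and Arhgef10 alone passed in GFP-low libraries (0.00885% called; 710 genes). Keeping the 20 libraries separate, with the mouse as a block, raised the count from 1 to 5 genes: Arhgef10, Banp, Nek2, Nfib and Ss18l2.

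The 20 genes with the smallest p, Arhgef10 included, held 10 that were higher and 10 that were lower in KO mice. None of the other 19 passed, with adjusted p between 0.221 and 0.373. For 15 of them the groups did not overlap, beside 0.779% (KO above WT) and 0.496% (KO below WT) of all genes. The 20 were picked by their p from these same mice, so this separation adds no support. Ss18l2, a small relative of the chromatin factor SS18 (chr9:121710389-121712921), was at 49.8, 68.0, 58.9, 53.5 and 67.3 CPM in the WT mice and 87.4, 88.9, 110.1, 103.5 and 79.7 CPM in the KO mice. Every KO mouse was above every WT mouse, and the difference was 0.66 ± 0.11 on the log2 scale (adjusted p = 0.221). Nfib, a transcription factor of the nuclear factor I family (chr4:82290173-82506751), was at 138, 104, 102, 117 and 150 CPM in WT and 212, 159, 204, 173 and 216 CPM in KO mice. These groups did not overlap either (log2 fold change 0.66 ± 0.12, adjusted p = 0.285).

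**Figure D1:**
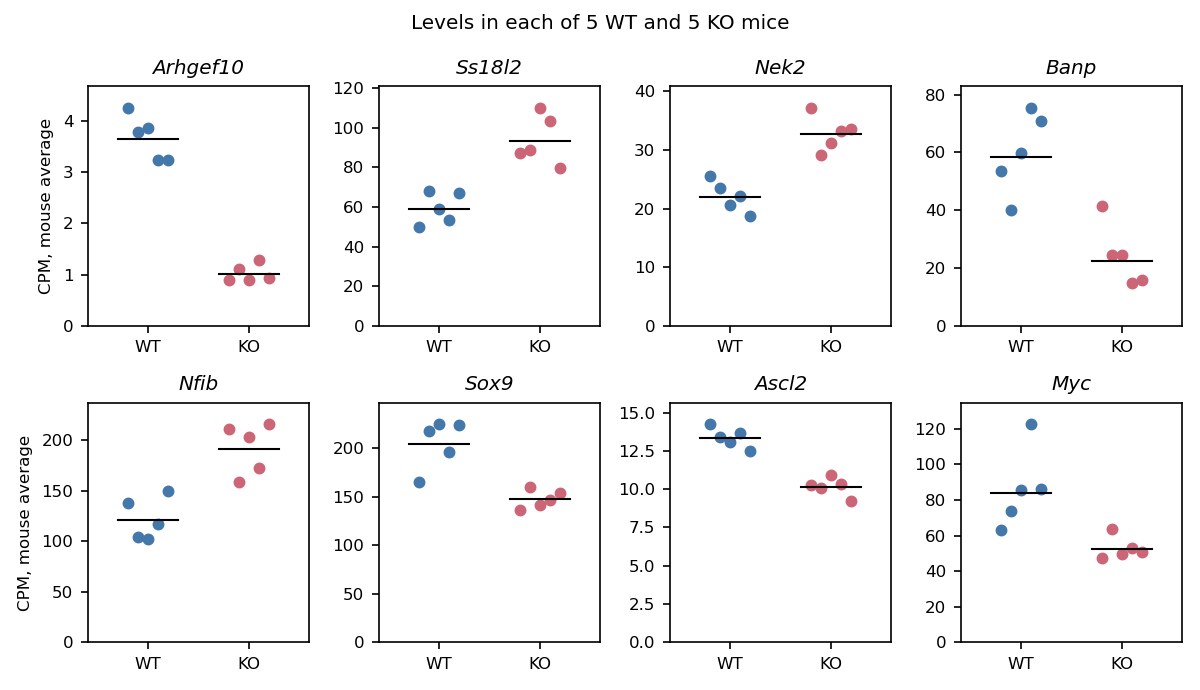
Level of 8 genes in each of 5 WT (blue) and 5 KO (red) mice, in CPM on a linear axis from 0; each point is the geometric mean of a mouse's GFP-high and GFP-low library, and the line is the geometric mean of the genotype. Arhgef10, Ss18l2, Nek2, Nfib, Sox9 and Ascl2 show no overlap between genotypes, while Banp and Myc do.

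Banp, a DNA-binding protein of the nuclear matrix (chr8:121947972-122029260), was 2.60-fold lower in KO mice but not evenly. WT mice held 53.7, 39.9, 59.8, 75.4 and 70.9 CPM and KO mice 41.4, 24.4, 24.5, 14.8 and 15.7 CPM. KO mouse 2 lay among the WT mice, and the other 4 KO mice lay below all of them (log2 fold change -1.38 ± 0.25, adjusted p = 0.285). Without KO mouse 2 Banp passed the test. Banp binds the palindrome CTCGCGAG as the core of its promoter element. Of the tested genes, 201 had a RefSeq promoter with those letters (they stood in 1.91% of the promoters of tested genes and in 0.919% of all promoters of that length), and their median log2 fold change was 0.01, with 15 higher and 9 lower in KO mice at an unadjusted p under 0.05 (7.46% and 4.48%). Rab4a, a GTPase of endosomal recycling on the same chromosome (chr8:123805846-123835291), was lower by a log2 fold change of -0.52 ± 0.12 (adjusted p = 0.364). WT mouse 1, at 27.7 CPM, overlapped the KO mice, which held 24 to 28 CPM. Leaving out WT mouse 1 brought Rab4a and Sox9 past the threshold. Chromosome 8 held 3 of the 20 genes, as did chromosomes 4 and 11. Of all 637 tested genes of chromosome 8, 4.24% were higher and 4.55% lower at an unadjusted p under 0.05, near the shares over all genes.

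The remaining genes of this set had varied roles. Fgr, a Src-family kinase best known from myeloid cells, was at 3.79 to 4.66 CPM in WT and 5.23 to 7.97 CPM in KO mice (log2 fold change 0.71 ± 0.14). Ctc1, of the complex that maintains telomere ends, Mrnip, a partner of the complex that senses DNA breaks, Ccar2, a regulator of apoptosis, and Glipr2, a Golgi-associated protein, were each higher in all 5 KO mice than in any WT mouse, by log2 fold changes of 0.36 to 0.53. Fhit, a dinucleoside hydrolase, Mettl7b, a methyltransferase, and the less well known 1810055G02Rik and Gm43323 were lower in every KO mouse, by -0.35 to -0.65. All of these stayed above an adjusted p of 0.3.

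**Figure D2:**
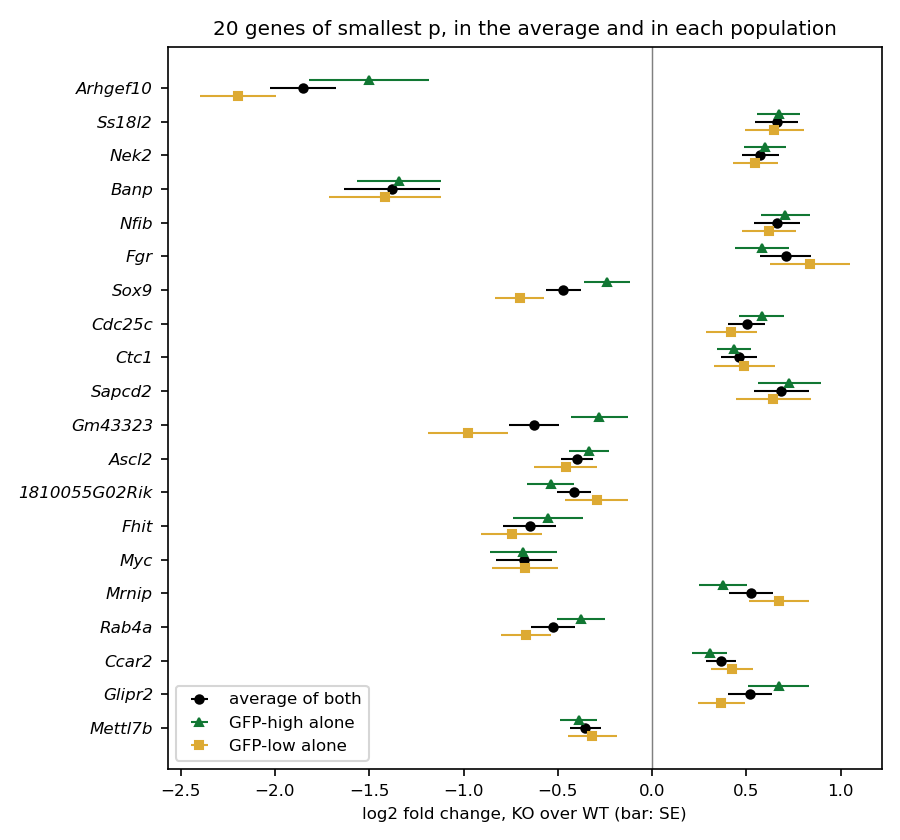
Log2 fold change of KO over WT for the 20 genes of smallest p, with SE as bars, in the mouse average (black circles), GFP-high libraries (green triangles) and GFP-low libraries (yellow squares). Each gene has the same sign in both populations; Sox9 and Gm43323 are further from 0 in GFP-low libraries, a difference that was not tested.

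Most genes of G2 phase and mitosis were higher in KO mice. Of 68 tested, 67 were higher in KO mice and 46 had an unadjusted p under 0.05, all 46 higher (67.6%, beside 4.17% of all genes), though none passed after adjustment. Over all tested genes, 49.7% were higher in KO mice. The median log2 fold change was 0.35, and it was 0.40 in GFP-high and 0.31 in GFP-low libraries. For 10 of the 68 genes all KO mice stood above all WT mice, as they did for 0.779% of all genes. In single mice the counts of these genes made up 0.323% to 0.487% of the total in WT and 0.482% to 0.656% in KO mice. The count of 46 became 28 without WT mouse 8 or without KO mouse 2, and 28 to 54 over all 10 omissions of 1 mouse, with medians from 0.29 to 0.40. It was 31 by the exact permutation test over mice. With limma it was 56 in GFP-high libraries alone, where 1 gene was lower at such a p, and 26 in GFP-low libraries alone. The members of this list are not independent of each other.

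Nek2, a kinase that separates the centrosomes before mitosis (chr1:191821449-191833049), had the third smallest p of all genes, though it was not on that list. WT mice held 25.5, 23.6, 20.7, 22.1 and 18.8 CPM and KO mice 37.2, 29.2, 31.2, 33.3 and 33.5 CPM. No KO mouse reached down to the WT range (log2 fold change 0.57 ± 0.10, adjusted p = 0.221). Cdc25c and Cdc25b, phosphatases that switch on the mitotic kinase CDK1, were likewise separate. Cdc25c was at 20.0 to 29.6 CPM in WT and 32.9 to 38.0 CPM in KO mice (0.50 ± 0.10, adjusted p = 0.349), and Cdc25b at 24.7 to 34.4 and 35.1 to 41.1 CPM (0.42 ± 0.09, adjusted p = 0.373). Racgap1, which organises the midzone of the dividing cell (chr15:99620496-99651656), was at 52.8, 47.5, 39.6, 48.0 and 35.3 CPM in WT and 80.4, 55.4, 63.0, 57.9 and 69.4 CPM in KO mice (0.55 ± 0.13, adjusted p = 0.373). Kif22, a chromosome-arm kinesin (chr7:127027729-127042467), was at 60.9, 71.0, 43.0, 68.8 and 41.8 CPM in WT and 90.6, 83.2, 79.3, 76.9 and 87.3 CPM in KO mice (0.58 ± 0.15, adjusted p = 0.428). WT mice 6 and 8 were the lowest for both of these genes, and the KO mice were the more uniform group for Kif22. Sapcd2, which acts on spindle orientation, was at 8.42 to 12.4 CPM in WT and 12.2 to 19.9 CPM in KO mice, with KO mouse 3 inside the WT range (0.69 ± 0.15, adjusted p = 0.364).

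Chosen after their values were seen, the best known members filled the range. Plk1, the polo kinase, was at 64.7 to 103 CPM in WT and 104 to 144 CPM in KO mice (0.49 ± 0.15, adjusted p = 0.479). Ccna2, cyclin A2, was at 38.3 to 49.9 and 49.9 to 77.9 CPM (0.45 ± 0.12, adjusted p = 0.428), the 2 groups only just apart. Ccnb1, cyclin B1, was higher by 0.33 ± 0.14, Cdk1 by 0.32 ± 0.16, Mki67, the antigen of the Ki-67 stain, by 0.25 ± 0.13 and Top2a, the topoisomerase of chromosome condensation, by 0.25 ± 0.18. For these 4 the groups overlapped and adjusted p was between 0.597 and 0.756. Cenpa, the histone of centromeres, was the only one of the 68 below 0, at -0.11 ± 0.18.

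Genes of DNA replication were also tested. Of 54 tested S phase genes, 39 were higher in KO mice, 2 had an unadjusted p under 0.05 (3.70%) and the median was 0.09. The 2 were Mcm10, a replication initiation factor (0.31 ± 0.11), and Dbf4, the activator of the Cdc7 kinase (0.30 ± 0.11), whose adjusted p were 0.564 and 0.562. Cdc6, which loads the replicative helicase, was at 16.2 to 23 CPM in WT and 13.0 to 18.4 CPM in KO mice (-0.26 ± 0.13). The difference between the 2 lists was not tested.

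The promoters of 4 of these genes are shown because genes of G2 and mitosis are known to be controlled together through 2 short elements, the CHR (TTTGAA) and the CCAAT box. Each line gives 100 bases before the RefSeq start and 30 from the start on (GRCm38.p6), read 5′ to 3′ on the gene's strand, with matches to either motif on either strand in capitals. A match is a description of the letters and not of a bound site.
Nek2, chr1:191821373-191821502, plus strand: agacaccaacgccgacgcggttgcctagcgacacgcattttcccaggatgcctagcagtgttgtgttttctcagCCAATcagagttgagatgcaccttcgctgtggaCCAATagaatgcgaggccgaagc
Hmmr, chr11:40733408-40733537, minus strand: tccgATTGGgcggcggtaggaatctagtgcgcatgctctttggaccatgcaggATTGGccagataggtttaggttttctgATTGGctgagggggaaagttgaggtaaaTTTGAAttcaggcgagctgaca
Racgap1, chr15:99651627-99651756, minus strand: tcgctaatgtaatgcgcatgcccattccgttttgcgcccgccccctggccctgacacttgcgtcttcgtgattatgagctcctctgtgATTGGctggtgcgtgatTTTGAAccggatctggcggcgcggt
Kif22, chr7:127042391-127042520, minus strand: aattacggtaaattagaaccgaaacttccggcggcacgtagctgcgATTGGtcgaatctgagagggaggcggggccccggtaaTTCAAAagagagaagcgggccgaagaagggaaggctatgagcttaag

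In these stretches Racgap1, Kif22 and Hmmr held a CHR downstream of a CCAAT box, and Nek2 held 2 CCAAT boxes and no CHR. Hmmr, a hyaluronan and spindle protein shown for its 3 CCAAT boxes, was at 32.9 to 51.5 CPM in WT and 48.4 to 56.5 CPM in KO mice (log2 fold change 0.47 ± 0.12, adjusted p = 0.428). In the whole RefSeq windows of 300 bases, from 250 before to 50 after the start, 56 of the 68 genes had 63 promoters. A CHR was in 68.3% of them and in 17.9% of all 32851 promoters, a CCAAT box in 76.2% and 37.4%, and both in 58.7% and 6.95%.

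Genes of antigen presentation on MHC class II had the largest differences of any list, with a wide spread between mice. Of 8 tested, all were higher in KO mice and 6 had an unadjusted p under 0.05. The median log2 fold change was 0.96, alike in GFP-high (0.96) and GFP-low (0.96) libraries. None passed after adjustment, and no gene separated the genotypes fully. By the exact permutation test over mice 3 of the 8 had an unadjusted p under 0.05. Cd74, the invariant chain that guides class II molecules to the endosome, was at 92.7, 128, 241, 45.4 and 89.6 CPM in WT and 220, 225, 510, 209 and 209 CPM in KO mice. WT mouse 6 reached the KO range and KO mouse 4 stood far above all others (1.31 ± 0.37, adjusted p = 0.432). H2-Ab1, a beta chain (chr17:34263227-34269418), was at 163, 179, 381, 87.8 and 230 CPM in WT and 262, 350, 671, 335 and 325 CPM in KO mice (0.98 ± 0.33, adjusted p = 0.543). H2-Eb1, the other beta chain, was at 18.4, 35.2, 81.0, 11.2 and 20.1 CPM in WT and 60.7, 56.9, 167, 50.9 and 51.6 CPM in KO mice (1.40 ± 0.47, adjusted p = 0.539). H2-Aa, the partner alpha chain of H2-Ab1, was at 2.99 to 32.9 CPM in WT and 18.6 to 85.7 CPM in KO mice (1.50 ± 0.55, adjusted p = 0.562). The same 2 mice, WT 6 and KO 4, were highest in their genotype for each of these genes, and WT 7 was lowest. H2-DMa and H2-DMb1, the chaperone that loads peptides, were higher by 0.76 ± 0.26 and 0.95 ± 0.35. Ciita, the master regulator of class II genes, was higher by 0.55 ± 0.38 and Ctss, the protease that trims the invariant chain, by 0.04 ± 0.10, neither with a p under 0.05. Over the omissions of 1 mouse, 6 or 7 of the 8 genes had an unadjusted p under 0.05, and the median was 0.73 without KO mouse 4 and 1.23 without WT mouse 6.

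The promoters of the alpha chain H2-Aa and the beta chain H2-Eb1 are shown because class II genes share a promoter module. Its last element, the Y box, is a CCAAT box. Capitals mark every match to CCAAT on either strand, in the same window as above. Which match is the Y box was not determined.
H2-Aa, chr17:34287794-34287923, minus strand: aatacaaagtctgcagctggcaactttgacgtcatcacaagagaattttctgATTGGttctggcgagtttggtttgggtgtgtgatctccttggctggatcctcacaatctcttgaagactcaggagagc
H2-Eb1, chr17:34305767-34305896, plus strand: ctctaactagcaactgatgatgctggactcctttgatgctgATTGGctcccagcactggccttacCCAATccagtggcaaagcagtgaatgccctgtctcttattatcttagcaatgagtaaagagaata

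Both windows held at least 1 CCAAT box close to the start, H2-Aa 1 and H2-Eb1 2. Of the 8 class II genes, 5 had 6 promoters in RefSeq. Of these promoters 4 held the letters (66.7%, beside 38.5% of the promoters of tested genes). None held a CHR, beside 12.3% of the promoters of tested genes.

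Immune cells also carry class II transcripts, and their markers are given here beside the list. Of 31 markers of T cells and intraepithelial lymphocytes 7 were tested, and Cd3e, Cd8a, Trac and Ptprc were not among the genes tested. All 7 were higher in KO mice (median 0.82), with none at an unadjusted p under 0.05. In GFP-high libraries alone 2 were higher at such a p, and in GFP-low libraries alone 0. Over the omissions of 1 mouse the median ran from 0.31 (without WT mouse 7) to 1.21 (without WT mouse 1), and 0 to 5 of the 7 had such a p, 5 of them without KO mouse 6. Their counts made up 0.00117% to 0.00614% of the total in WT and 0.00213% to 0.00988% in KO mice. Gzma, a granzyme of cytotoxic lymphocytes, was at 10.2, 6.09, 5.96, 0.858 and 4.24 CPM in WT and 7.10, 10.2, 9.39, 20.8 and 3.03 CPM in KO mice. KO mouse 5 was highest and WT mouse 7 lowest, and KO mouse 4, the highest for class II genes, was inside the WT range. Of 21 myeloid markers 5 were tested, and 3 of these 5 were also in another list. Their median was 0.04, with 0.00620% to 0.00714% of counts in WT and 0.00582% to 0.00780% in KO mice. Of the 5, Cd14 was higher by 0.39 ± 0.16 (adjusted p = 0.594). Of 15 markers of B and plasma cells 1 was tested. Of 20 of stroma and endothelium 1 was tested, and none of 9 of red cells. The part of such cells in the class II values was not tested.

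Lists of neighbouring immune functions also had positive medians. Of 26 tested genes of MHC class I and the immunoproteasome 22 were higher in KO mice, 6 of them at an unadjusted p under 0.05 (23.1%), with a median of 0.17. That count was 12 with library totals and 10 without WT mouse 6. Psmb8 and Psmb9, subunits of the immunoproteasome, were higher by 0.44 ± 0.13 and 0.44 ± 0.12, Tap1, of the peptide transporter, by 0.45 ± 0.12, and the class I gene H2-Q7 by 0.91 ± 0.27. H2-Q7 has near-identical neighbours, so the division of reads among them is uncertain. Psmb9, at 30.0 to 42.6 CPM in WT and 40.4 to 60.8 CPM in KO mice, overlapped between groups by a narrow margin. Among 41 genes of the interferon response, 3 were higher at an unadjusted p under 0.05 (7.32%) and the median was 0.13. The count was 11 with library totals and 1 to 8 over the omissions of 1 mouse (1 without WT mouse 1, 8 without WT mouse 6), and the median was 0.03 without WT mouse 7. The 3 genes were Bst2, a membrane tether of viruses (0.43 ± 0.15), and Gbp6 and Irgm2, interferon-induced GTPases (0.53 ± 0.21 and 0.60 ± 0.25). Of 30 genes of epithelial innate defence, 4 were higher (13.3%): Tlr1, a receptor of bacterial lipoproteins (0.90 ± 0.24), Duox2 and its partner Duoxa2, which make hydrogen peroxide at the cell surface (0.41 ± 0.15 and 0.46 ± 0.21), and the chemokine Ccl28 (0.33 ± 0.13). That count was 8 with library totals, 7 without WT mouse 3 and 2 without WT mouse 8, KO mouse 3 or KO mouse 5. Adjusted p was between 0.428 and 0.624 for these genes.

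**Figure D3:**
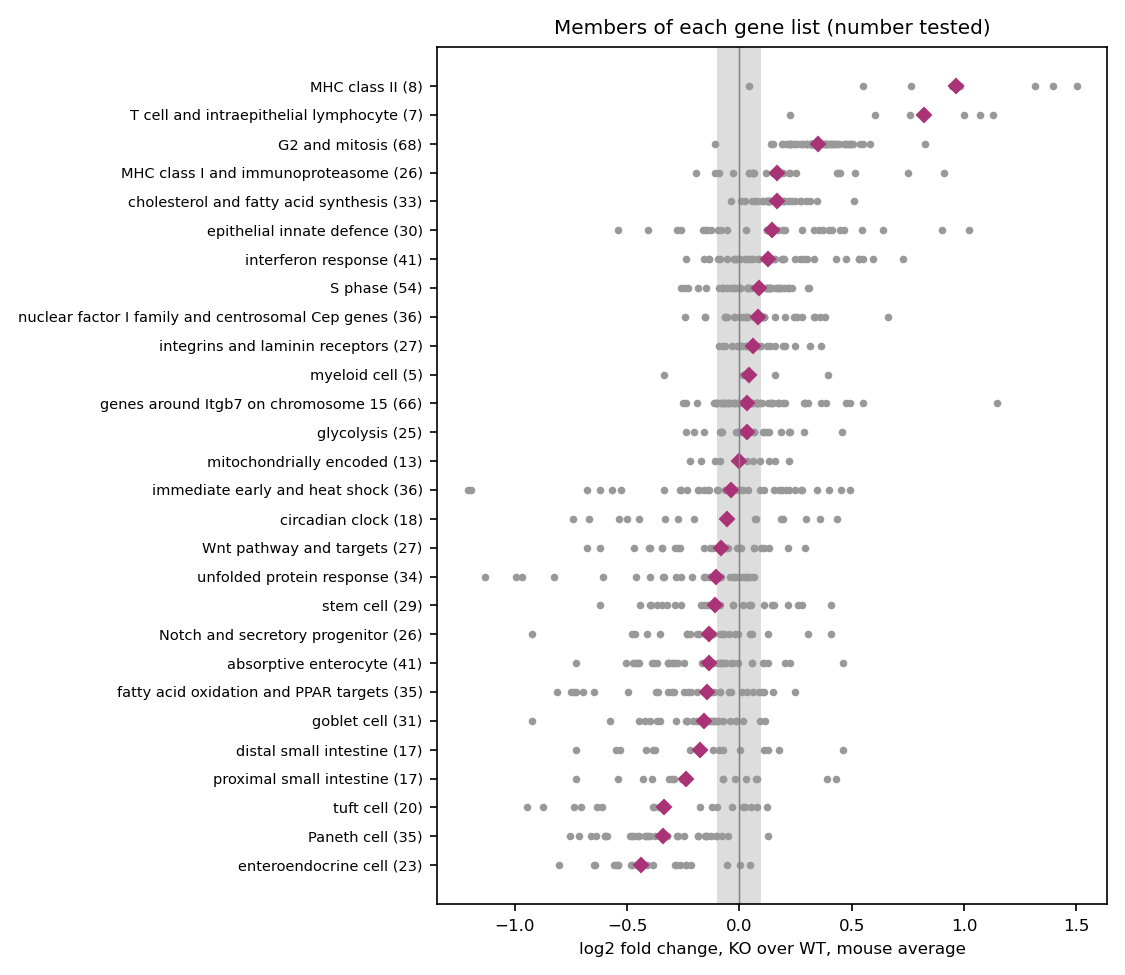
Log2 fold change of KO over WT, mouse average, of each tested gene (grey points) of 28 lists with at least 5 tested members, and the median of each list (purple diamond); the grey band spans the quartiles of all 11296 genes, -0.10 to 0.09. MHC class II (0.96) and G2 and mitosis (0.35) lie to the right, and enteroendocrine (-0.44), Paneth (-0.34) and tuft cell (-0.34) markers to the left.

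Of the Wnt pathway and its targets, 7 of 27 tested genes were lower at an unadjusted p under 0.05 (25.9%, beside 3.64% of all genes), and none was higher. The count of lower genes was 3 with library totals, 5 by the exact permutation test and 5 to 8 over the omissions of 1 mouse. Without WT mouse 1, 2 genes were higher at such a p. The median of the list was -0.08 and turned to 0.02 when libraries were scaled by their totals alone, which moved the median of all genes by 0.10. Ascl2, a transcription factor of crypt stem cells (chr7:142966822-142969264), was at 14.2, 13.4, 13.1, 13.7 and 12.5 CPM in WT and 10.3, 10.1, 10.9, 10.3 and 9.21 CPM in KO mice. Both groups were tight and apart, for a log2 fold change of -0.40 ± 0.08 (adjusted p = 0.364). Sox9, a transcription factor of the crypt base and of Paneth cells (chr11:112782210-112787757), was at 165, 218, 225, 197 and 225 CPM in WT and 136, 160, 141, 147 and 154 CPM in KO mice. It was apart by a small margin, at -0.47 ± 0.09 (adjusted p = 0.342), and its difference was -0.24 ± 0.12 in GFP-high and -0.70 ± 0.13 in GFP-low libraries. Myc, the growth regulator (chr15:61985341-61990361), was at 63.2, 73.7, 85.7, 122 and 86.0 CPM in WT and 47.6, 63.5, 49.5, 53.0 and 50.6 CPM in KO mice, with KO mouse 3 just above WT mouse 1 (-0.68 ± 0.15, adjusted p = 0.364). Ccnd2, cyclin D2, was at 777 to 961 CPM in WT and 568 to 766 CPM in KO mice (-0.34 ± 0.10, adjusted p = 0.432). Fzd5, a Wnt receptor, Znrf3, which removes such receptors from the surface, and Tnfrsf19, a receptor of stem cells, were the other 3, at -0.27 to -0.62.

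Stem cell markers were divided. Of 29 tested, 11 were higher and 18 lower, with 2 higher (6.90%) and 5 lower (17.2%) at an unadjusted p under 0.05 and a median of -0.11. That division turned with the settings: library totals alone gave 5 higher and 1 lower with a median of -0.01. Leaving out 1 mouse gave 2 to 8 lower (2 without WT mouse 3 or KO mouse 5, 8 without WT mouse 8). The median was 0.02 in GFP-high and -0.17 in GFP-low libraries. Of the 29 genes 7 were also in another list, as were 9 of the 27 Wnt genes, so counts of different lists are not independent. Lrig1, a brake on growth factor receptors, was at 52.0 to 60.1 CPM in WT and 63.9 to 70.0 CPM in KO mice, without overlap (0.26 ± 0.07, adjusted p = 0.428), and Prom1, a protein of membrane protrusions, was higher by 0.22 ± 0.07. Gkn3, a secreted protein of stem cells, was lower by -0.39 ± 0.12. Lgr5 had no difference in the average beyond its spread, at 40.9, 42.3, 43.9, 23.8 and 24.3 CPM in WT and 22.4, 33.0, 33.5, 21.1 and 25.6 CPM in KO mice (-0.34 ± 0.20, adjusted p = 0.709). Its value was 0.07 ± 0.12 in GFP-high and -0.75 ± 0.37 in GFP-low libraries, where the gate on the reporter acts on the same gene.

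Markers of secretory lineages were mostly lower in KO mice, with few single genes beyond their spread. Enteroendocrine markers had a median of -0.44, with 21 of 23 lower and 5 lower at an unadjusted p under 0.05 (21.7%), a count of 3 without WT mouse 1 and 9 without WT mouse 7. Chga, chromogranin A of hormone granules, was at 157, 79.5, 106, 81.6 and 134 CPM in WT and 55.6, 74.4, 75.8, 85.1 and 58.3 CPM in KO mice. KO mouse 5 lay inside the WT range, and WT mouse 1 was highest (-0.64 ± 0.19, adjusted p = 0.457). Chgb, its relative, was lower by -0.56 ± 0.20 and Isl1, a transcription factor of endocrine cells, by -0.65 ± 0.20. The median of the list was -0.82 in GFP-high and -0.03 in GFP-low libraries. Summing counts per mouse does not weight both populations alike. The median was then -0.13, and no gene had an unadjusted p under 0.05 in edgeR. The cause of that shift was not tested.

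Tuft cell markers had a median of -0.34, with 15 of 20 lower and 4 at an unadjusted p under 0.05 (20.0%). In GFP-high libraries alone 6 were lower at such a p, and in GFP-low libraries alone 0. With counts summed per mouse none had such a p in edgeR or DESeq2 (medians -0.24 and -0.23), and leaving out 1 mouse gave 2 to 8, with 2 without WT mouse 6 or 8 and 8 without WT mouse 3. Dclk1, the kinase used to mark tuft cells, was at 8.56, 3.29, 14.2, 4.56 and 12.9 CPM in WT and 3.54, 4.24, 4.57, 4.50 and 3.69 CPM in KO mice. WT mice 3 and 7 were at the KO level and the other 3 WT mice were above it (-0.88 ± 0.35, adjusted p = 0.590). Avil, Alox5ap and Sh2d7, other tuft cell genes, were lower by -0.71 to -0.95. Paneth cell markers were lower for 34 of 35 genes, but 2 had an unadjusted p under 0.05 (5.71%), Sox9 and Clps, and the median of -0.34 was -0.07 without KO mouse 2. That count was 6 without WT mouse 7 and 6 with edgeR on summed counts. The Paneth median was -0.06 in GFP-high libraries, with 0 lower at such a p, and -0.71 in GFP-low libraries, with 5 lower. Clps, colipase, was at 233 to 663 CPM in WT and 115 to 356 CPM in KO mice (-0.71 ± 0.32, adjusted p = 0.625). The Paneth list made up 6.85% to 17.6% of counts in WT and 3.43% to 11.5% in KO mice, its lowest share being that of KO mouse 2. Its defensins are near-identical, so their single values are uncertain. Goblet cell markers had a median of -0.16 with 3 of 31 lower at an unadjusted p under 0.05 (9.68%). The median was 0.01 when counts were summed, and the count was 7 without WT mouse 7 and 6 without KO mouse 5. The goblet median was -0.40 in GFP-high libraries, with 8 lower at such a p, and 0.05 in GFP-low libraries, with 1 lower. Atoh1, which commits cells to all secretory fates, was at 6.09, 12.6, 6.36, 5.62 and 14.4 CPM in WT and 3.45, 4.54, 4.81, 3.78 and 5.70 CPM in KO mice. KO mouse 6 alone overlapped the lowest WT mouse (-0.92 ± 0.27, adjusted p = 0.446). Among 26 genes of Notch and secretory progenitors, 1 was higher at an unadjusted p under 0.05 (3.85%), Hes1, the main Notch target (0.31 ± 0.14). At such a p 3 were lower (11.5%, beside 3.64% of all genes), and the median was -0.13.

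**Figure D4:**
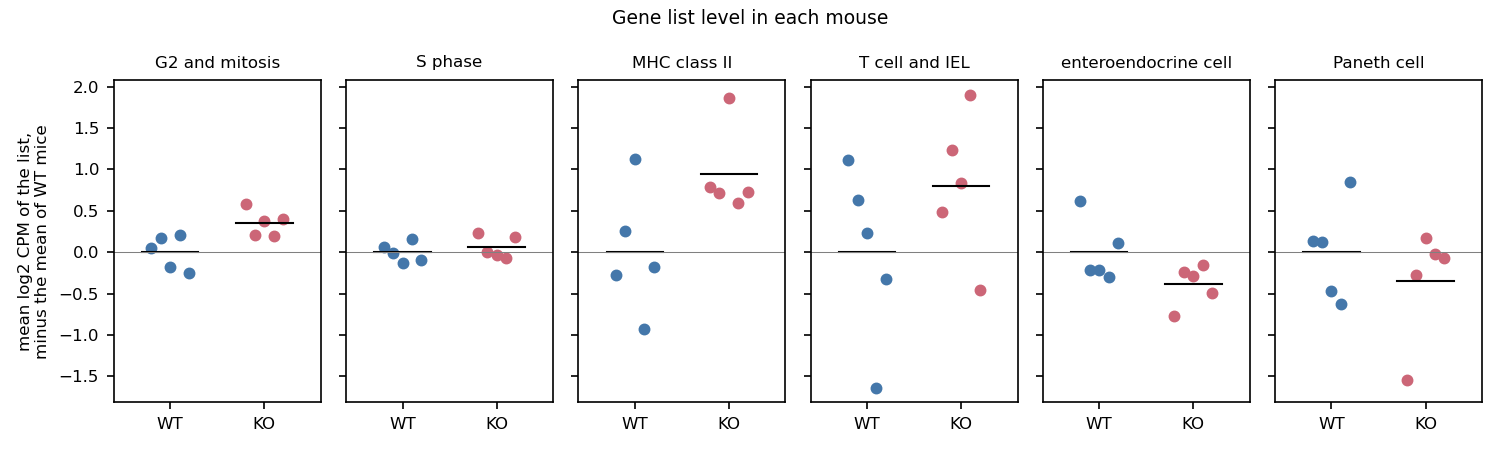
Mean log2 CPM of the tested genes of 6 lists in each of 5 WT (blue) and 5 KO (red) mice, with the mean of the WT mice set to 0 and a line at the mean of each genotype. G2 and mitosis genes run from -0.25 to 0.205 in WT and from 0.1975 to 0.58 in KO mice, with WT mouse 7 just above KO mouse 5. MHC class II genes reach 1.13 in WT mouse 6 and 1.86 in KO mouse 4.

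Absorptive enterocyte markers had a median of -0.14 over 41 genes. At an unadjusted p under 0.05, 1 was higher (2.44%) and 4 lower (9.76%), beside 4.17% and 3.64% of all genes. The 4 lower genes were Fabp1 and Fabp2, carriers of fatty acids (-0.73 ± 0.26 and -0.32 ± 0.09), Khk, of fructose use (-0.30 ± 0.10), and Slc5a1, the sodium-glucose transporter (-0.30 ± 0.12). Leaving out 1 mouse moved the count of lower genes between 3 (without WT mouse 6) and 17 (without KO mouse 2). Genes of fatty acid oxidation and PPAR targets held 7 of 35 lower (20.0%), with a median of -0.15. The count was 3 with library totals and 12 with edgeR on summed counts, and 4 to 13 over the omissions of 1 mouse (4 without WT mouse 6 or KO mouse 2, 13 without WT mouse 1). In GFP-high libraries alone 1 of these genes was lower and 1 higher at such a p. In GFP-low libraries alone 11 were lower and 0 higher. Ppara, the nuclear receptor that drives them, was at 22.3, 28.2, 32.3, 46.8 and 31.8 CPM in WT and 28.6, 21.2, 21.6, 20.8 and 19.8 CPM in KO mice, KO mouse 2 being the one inside the WT range (-0.50 ± 0.17, adjusted p = 0.543). Cholesterol and fatty acid synthesis had 32 of 33 genes higher, a median of 0.17 and 2 at an unadjusted p under 0.05 (6.06%): Mvk, mevalonate kinase (0.35 ± 0.14), and Acss2, acetyl-CoA synthetase (0.25 ± 0.09). That count was 8 with library totals and 11 without WT mouse 3, and it ran from 1 to 11 over the omissions of 1 mouse, with medians from 0.10 to 0.24.

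Protein folding in the endoplasmic reticulum included some of the larger differences. Of 34 genes of the unfolded protein response 7 were lower at an unadjusted p under 0.05 (20.6%) and none was higher, with a median of -0.11. With library totals 5 were lower at such a p and the median was -0.01. Omitting 1 mouse gave 5 to 8 lower (5 without KO mouse 5 or 6). Herpud1, of the degradation pathway for misfolded proteins (chr8:94386429-94395371), was at 370, 386, 433, 577 and 810 CPM in WT and 186, 337, 330, 268 and 298 CPM in KO mice, without overlap (-0.83 ± 0.22, adjusted p = 0.428). Hspa5, the chaperone BiP, was at 704 to 898 CPM in WT and 538 to 720 CPM in KO mice (-0.34 ± 0.10, adjusted p = 0.438). Manf, a secreted stress factor, was lower by -0.46 ± 0.15. Canx, calnexin, was at 773, 1673, 755, 1018 and 876 CPM in WT and 479, 386, 459, 374 and 875 CPM in KO mice, with KO mouse 6 at the WT level (-0.99 ± 0.25, adjusted p = 0.428). Ssr1, of the translocon (named after its values were seen), was uneven: 290, 115, 104, 325 and 602 CPM in WT and 102, 113, 114, 102 and 101 CPM in KO mice. WT mice 3 and 6 had the KO level, and WT mice 1, 7 and 8 stood above it (-1.13 ± 0.38, adjusted p = 0.543). The list of immediate early and heat shock genes held 8 of 36 lower at an unadjusted p under 0.05 (22.2%), among them Dnaja1, a co-chaperone of HSP70, at 284 to 370 CPM in WT and 168 to 261 CPM in KO mice (-0.53 ± 0.13, adjusted p = 0.428). The count was 4 without KO mouse 5. The list's median was -0.04 and turned to 0.06 when libraries were scaled by their totals.

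Integrins and their partners gave no single gene beyond its spread. None of 27 tested genes of integrins, laminin receptors and E-cadherin had an unadjusted p under 0.05, and the median was 0.06. Cdh1, E-cadherin and the ligand of alpha E beta 7, was at 308, 311, 317, 328 and 309 CPM in WT and 340, 334, 348, 321 and 332 CPM in KO mice (0.09 ± 0.06, adjusted p = 0.733). Around the targeted locus (chr15:102215994-102233405), 29 genes within 1 Mb were tested. Of these 3 were higher at an unadjusted p under 0.05, namely Zfp740, Espl1 and Aaas, and none was lower. Over all genes 4.17% were higher and 3.64% lower at such a p. The median of the 29 was 0.00, and their log2 fold changes ran from -0.24 to 1.145. Over 66 tested genes of the wider region of chromosome 15 there were 6 higher (9.09%) and 1 lower (1.52%), Gpd1, a glycerol phosphate dehydrogenase (-0.25 ± 0.07, adjusted p = 0.438). Racgap1 and Espl1, both of the mitotic list, were among the 6.

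The median of 25 glycolysis genes was 0.04. That of 13 mitochondrially encoded genes was 0.00 and ran from -0.08 without WT mouse 7 to 0.15 without WT mouse 6. Circadian clock genes had a median of -0.06, which turned to 0.04 when libraries were scaled by their totals. Of 18 tested, 3 were lower at an unadjusted p under 0.05 (16.7%, beside 3.64% of all genes). These were Per2, Cry2 and Nr1d2, repressors of the clock, lower by -0.50 to -0.74. The times of day of collection were not given in the sources used here. Of 17 tested genes typical of the proximal small intestine 12 had a lower mean in KO mice. At an unadjusted p under 0.05, 1 was higher (5.88%) and 2 lower (11.8%), beside 4.17% and 3.64% of all genes. The median was -0.24, which was -0.07 with summed counts. Of 17 typical of the distal small intestine 12 also had a lower mean, with 0 higher and 4 lower (23.5%) at such a p and a median of -0.17. Leaving out 1 mouse gave 1 to 5 lower in the proximal list (1 without WT mouse 7 or KO mouse 5, 5 without KO mouse 2) and 1 to 6 lower in the distal list (1 without KO mouse 3 or 4, 6 without KO mouse 2). Nuclear factor I and centrosomal Cep genes, a list drawn up after earlier results of these data, had 5 of 36 higher (13.9%), Nfib among them, with Cep44 (0.38 ± 0.11) and Cep72 (0.36 ± 0.13) next.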

How the data were processed

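RNA of the 20 libraries was sequenced after extraction with a column kit for small inputs. The authors deposited expected counts per gene, 1 table for GFP-high and 1 for GFP-low libraries, with no normalization visible in the totals; the submitters' processing notes name RSEM, Bowtie2, TopHat2 and build mm10, in roles not given there. Expected counts were rounded to whole numbers, and genes with a unique name in both tables kept (11296 of 11746 and 11779 entries; filterByExpr at a minimum count of 10 removed none). The lowest mean count of an entry was 17.0 and 16.8, so rarer genes are not analysed here. Strand is not given in the sources used here, so reads of genes that overlap on opposite strands may be mixed. TMM factors over 20 libraries, log2 CPM with a prior count of 2 (edgeR 4.0.16), the mean per mouse and limma 3.58.1 with trend in R 4.3.3 gave the test, adjusted by Benjamini-Hochberg with a threshold of 0.05. Fold changes of rare genes are drawn towards 0 by the prior count. A limma test on mouse averages was used in place of a count test, since the average weights both populations alike; edgeR, and DESeq2 1.42.0, were run on the counts as alternatives. The procedure was tested on simulated counts.

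That the 2 libraries of a number come from 1 mouse is read from the shared number, which no label explains, and was checked: their deviations from the group means correlated at 0.17 to 0.63 in all 10 mice, each library being closest to its own number. The p-values measure the spread between these animals, whose housing is not given in the sources used here. Named genes were Lgr5, Itgb7, the 20 of smallest p, and from each of 31 lists the 4 members of smallest p; others are named as such. The members and lists were chosen with earlier results of these data known. Positions are RefSeq's for GRCm38, matched by symbol for 10727 genes and by synonym for 212. The names of 12 tested genes had been turned into dates and are not given.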

Additional observations from a re-analysis of the deposited data

Results flagged for a closer look

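Over the 129 named genes, tested in each genotype of 5 mice, 16 of 258 groups held a mouse whose gap to the nearest other, relative to the range of its group, was above the 95% limit for 5 values; chance gives about 1 in 20. Values are mouse averages in CPM. KO mouse 4 was high for 4 class II genes, which vary together: 509.6 for Cd74, 166.8 for H2-Eb1, 85.7 for H2-Aa and 72.5 for H2-DMb1, beside 225.4, 60.7, 28.1 and 34.2 in the next KO mouse. KO mouse 2 was low for Fgr (5.23), 1810055G02Rik (17.4), Lyz2 (6.33), a lysozyme of myeloid and Paneth cells, and the Paneth gene Gm14851 (168.3, beside 385.2 in the next mouse), and high for Ppara (28.6) and Slc16a1 (45.8). KO mouse 5 was high for Ctc1 (34.8) and Duoxa2 (19.5). WT mouse 8 was high for Manf (185.1) and low for Arntl (7.40), a clock activator that was at 13.6 CPM or more in the other WT mice. WT mouse 1 was high for Isl1 (14.3) and WT mouse 7 for Pdk1 (27.6).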

How the results depend on the processing

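The count of 1 gene stayed at 1 with edgeR on counts summed per mouse, median-of-ratios factors, prior counts of 0.5 and 5, no filter, limma without trend or with robust moderation, GFP-low libraries alone and a weighting of 3 to 1 for GFP-low. With the mouse as replicate block over 20 libraries (consensus correlation 0.327) it was 5. KO and WT mice numbered 3 or 6 did not deviate together (correlations of -0.0744 and -0.0994) and were not paired. The count was 24 with DESeq2 on summed counts (9 higher, 15 lower), 2 with library totals, and 60 with edgeR over 20 libraries with no mouse term (36 higher, 24 lower), a fit that counts each mouse 2 times. It was 0 with GFP-high libraries alone, with a weighting of 3 to 1 for GFP-high, and among the 9684 genes whose mean log2 CPM was 2 or more, a filter that removes Arhgef10. Leaving out 1 mouse gave 1 to 3 genes (3 without WT mouse 1 and 3 without KO mouse 2). In GFP-high libraries that range was 0 to 1, with Banp passing without KO mouse 2, and in GFP-low libraries 1 to 2, the second gene being Gm3776 without KO mouse 4. Arhgef10 kept its direction in every one of these fits that tested it, with log2 fold changes from -1.50 to -2.20. Its adjusted p was 0.159 in GFP-high libraries, 0.0885 at 3 to 1 for GFP-high and 0.598 when the exact permutation p, which cannot fall below 0.00794, was adjusted over all genes, and 0.0109 or less in the others. Named genes that changed sign, none past the threshold, were Lgr5 (0.0661) and Lyz2 (0.0807) in GFP-high libraries, Alox5ap (0.17), Neurog3 (0.11), Cd47 (-0.0722) and Itgam (-0.00398) in GFP-low libraries, Gcg on summed counts (0.00318 in edgeR and 0.00374 in DESeq2), and Ctss, which ran from -0.0378 without WT mouse 1 to 0.0791 without WT mouse 6; the cause was not tested. Levels of a few CPM limit precision most for lymphocyte and tuft cell genes.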

Other observations

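Genes with a unique name in only 1 of the deposited tables were outside the average. Among 416 such genes of the GFP-high libraries, none passed limma's test, 26 were higher (6.25%) and 6 lower (1.44%) in KO mice at an unadjusted p under 0.05, beside 5.03% and 4.93% of all 11711 genes tested in that table, and the smallest p was that of Chst2, a sulfotransferase, at a log2 fold change of -1.50 ± 0.31 (adjusted p = 0.153). Among 453 such genes of the GFP-low libraries, none passed, 3 were higher (0.662%) and 25 lower (5.52%), beside 3.02% and 3.21% of 11748 genes, and Gm26620 had the smallest p (-1.54 ± 0.30, adjusted p = 0.480). The levels of these genes were not compared with those of the shared genes.

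The variation that the 2 libraries of a mouse shared within a genotype was largest, among genes whose mean log2 CPM was 3 or more, for Fosl1, an AP-1 subunit, with a shared SD of 1.27 on the log2 scale. It was followed by the chemokine Ccl5 (1.12), the receptor kinase Epha2 (1.11), the stress kinase Plk3 (1.09) and Itpkc (1.05), then Edn1, H2-Aa, Hbegf and Hspa1a, at 0.98 to 1.03. For comparison, the median SD between mice was 0.19 (WT) and 0.17 (KO). These genes were chosen after their values were seen.

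Zkscan7, a zinc finger gene on chromosome 9, as is Ss18l2, was also singled out after its values were seen. It was at 1.65, 2.15, 2.07, 2.64 and 2.09 CPM in WT and 2.57, 4.08, 4.92, 4.95 and 3.21 CPM in KO mice, a log2 fold change of 0.87 ± 0.21 (limma, adjusted p = 0.428). It was 1.30 ± 0.23 in GFP-high and 0.44 ± 0.24 in GFP-low libraries, and Zkscan7 passed with DESeq2 on summed counts.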
